A study of Mus musculus with 8 samples.

Results

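The genes described are 31 genes of cholesterol and fatty acid synthesis, 16 in a sterol branch and 15 in a fatty acid branch. They were chosen by name from the 2 pathways, with earlier results of these data known, and all 31 were measured among 18193 genes. The sterol branch held 14 enzymes of the route that makes mevalonate, squalene and cholesterol, with the regulators Insig1 and Srebf2. The fatty acid branch held 14 enzymes that supply, build, lengthen, desaturate or activate fatty acids, with the regulator Srebf1. A gene's value is the log2 expression value of its brightest probe set, the one with the highest mean over the 8 arrays. Probe sets whose annotation named more than 1 gene were not used.

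The 8 arrays carried small intestinal RNA of BALB/c mice, 6 to 9 days of age. There were 3 ICC-DMP samples, 3 ICC-MY samples and 2 samples of whole tunica muscularis, the smooth muscle layers in which such cells lie. ICC are interstitial cells of Cajal, which pace and relay signals to gut muscle. ICC-DMP lie in the deep muscular plexus and ICC-MY in the myenteric plexus, as the abbreviations are used in this field. No transgene, mutation or treatment is named for any group, and the way the cells were isolated, the sex and the number of animals per sample are not stated in the sources used here. The series' text asks how each ICC class differs from the tissue and how the classes differ from each other.

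Cells make cholesterol from acetyl-CoA by way of mevalonate and squalene, and make fatty acids from the same precursor by way of malonyl-CoA. SREBP transcription factors, encoded by Srebf1 and Srebf2, are held in the endoplasmic reticulum by INSIG proteins and switch on both sets of genes once released. SREBP2 acts mainly on sterol genes, and SREBP1c, one of the products of Srebf1, mainly on fatty acid genes.

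The ICC labels were set against defining markers. Kit, the receptor tyrosine kinase that ICC depend on, read 11.07, 11.34 and 10.84 in ICC-DMP and 10.81, 12.42 and 11.99 in ICC-MY, against 7.20 and 8.43 in tunica muscularis. Ano1, the chloride channel of ICC, was also higher on every ICC array than on either tissue array. Of 7 listed ICC markers, 3 passed as higher than the tissue in ICC-DMP and 5 in ICC-MY, and 0 passed as lower. In ICC-DMP the means of Prkcq and Edn3, 6.86 and 5.63, were close to the 6.92 and 5.61 of the tissue. As the mean level over 10 smooth muscle markers, ICC-DMP read 9.70 to 9.95, ICC-MY 7.05 to 7.79 and tunica muscularis 10.27 to 11.22, and 8 of the 10 passed as higher in ICC-DMP than in ICC-MY. Mean levels of the neuron list (9 genes measured) were 3.48 to 3.68 on the ICC arrays, against 7.58 and 8.05 in the tissue, and those of 7 mesothelial markers were 3.84 to 4.23, against 9.03 and 9.33. Macrophage markers passed as lower for 8 of 10 in ICC-DMP and 7 of 10 in ICC-MY, and glia and Schwann cell markers for 4 of 8 in each. Of 7 fibroblast markers, 1 passed as lower in ICC-DMP and 4 in ICC-MY. Their mean levels in ICC-DMP, 10.75 to 11.18, lay around the 10.87 of tunica muscularis replicate 1 and below replicate 2. Of 8 endothelial markers, 3 passed as lower and 1 as higher in ICC-DMP, and 1 as lower in ICC-MY. The endothelial marker Plvap averaged 9.14 in ICC-DMP, against 5.78 in the tissue. The 10 epithelial markers averaged 3.75 to 4.05 on the ICC arrays, against 5.40 and 7.79 in the tissue. Immediate early and dissociation response genes ran the other way. All 12 passed as higher in ICC-DMP and 11 as higher in ICC-MY, with mean levels of 11.08 to 11.33 in ICC-DMP and 9.30 to 10.38 in ICC-MY, against 6.47 and 6.54 in the tissue. The part of these lists in the differences below was not tested. In bulk samples such as the tissue, fewer cells of a type and less RNA per cell cannot be told apart.

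2 arrays stood apart, replicate 1 of ICC-MY and replicate 1 of tunica muscularis. Their values spanned less (SD 1.98 and 2.06, against 2.22 to 2.31 elsewhere), and over 685 bright genes they averaged 10.03 and 10.16, against 10.84 to 11.16 on the other arrays. These arrays were the lowest of their group for most genes of both branches. ICC-MY replicate 1 was the lowest ICC-MY array for 12 of 16 sterol genes and 13 of 15 fatty acid genes (75.0% and 86.7%), against 52.1% of all genes. Tunica muscularis replicate 1 was the lower tissue array for 13 of 16 and 13 of 15 (81.2% and 86.7%), against 58.7% of all genes. ICC-DMP replicate 3 was the lowest ICC-DMP array for 9 of 16 sterol genes (56.2%), against 34.3% of all genes. Its actin control, measured at the 3′ and the 5′ end of the transcript, differed by 4.66 log2 units, against 2.92 and 3.08 on the other ICC-DMP arrays. ICC-MY replicate 3 showed the same, with 4.28, against 3.17 and 3.03 on the other ICC-MY arrays, and the tissue arrays read 2.53 and 3.53.

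**Figure D1:**
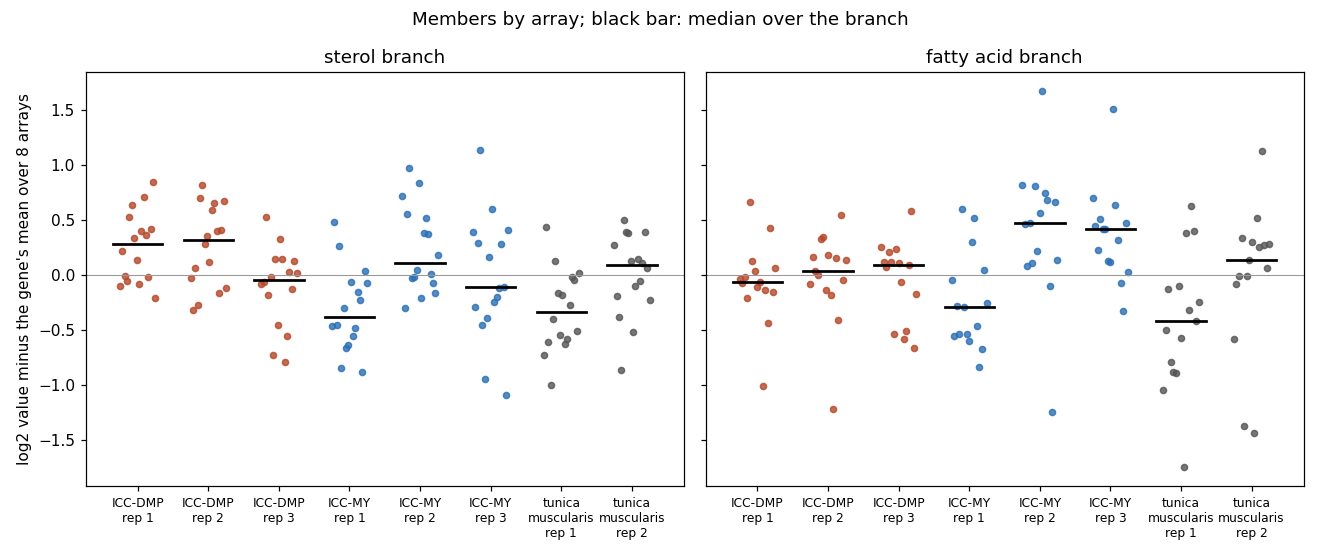
Each point is 1 gene on 1 array, as its log2 value minus that gene's mean over the 8 arrays, for the 16 sterol and the 15 fatty acid genes; black bars are branch medians. The bars of ICC-MY replicate 1 and tunica muscularis replicate 1 lie below 0 in both branches.

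The first comparison set ICC-DMP against tunica muscularis. In the sterol branch 0 of 16 genes passed limma's test at an adjusted p under 0.05, and 3 had an unadjusted p under 0.05, while over all genes 11.0% passed (3.72% higher and 7.32% lower in ICC-DMP). In the fatty acid branch 4 of 15 passed (26.7%), Elovl6 and Scd1 as higher and Elovl7 and Fads2 as lower in ICC-DMP. Over both branches the share was 12.9%, close to that of all genes. The second comparison set ICC-MY against the same 2 tissue arrays, which the comparisons share. There 1 of 16 sterol genes passed, Mvd as higher, and 5 of 15 fatty acid genes (33.3%), with Elovl6, Scd1 and Srebf1 higher and Fads2 and Me1 lower in ICC-MY. Over all genes 13.8% passed (4.05% higher and 9.78% lower in ICC-MY). Between the classes, Mvd and Elovl7 were lower and Me1 was higher in ICC-DMP than in ICC-MY, which is 9.68% of the 31, against 8.67% of all genes (5.36% higher and 3.30% lower in ICC-DMP). All ICC-DMP arrays lay above the tissue arrays for 10 genes and below them for 2, against 38.5% of all genes in either direction. In ICC-MY against tissue these were 5 and 4 genes, against 34.2% of all genes, and in ICC-DMP against ICC-MY 4 and 4, against 25.6%. In all, 7 genes passed somewhere and 24 passed nowhere. The titles call the samples biological replicates without saying that they came from separate animals, so these p-values measure differences against the spread between samples.

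**Figure D2:**
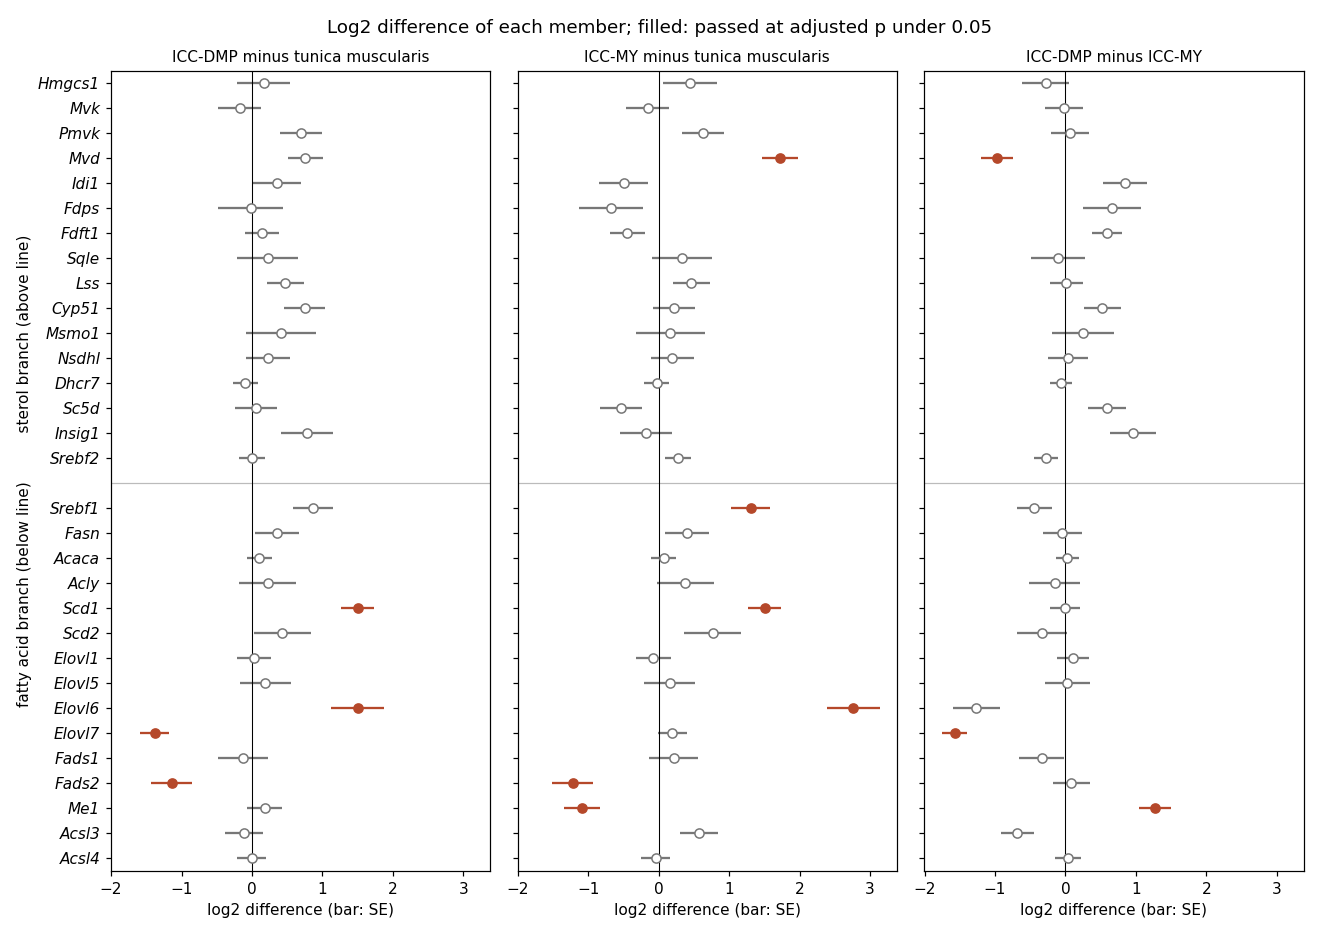
Log2 difference of each of the 31 genes in the 3 comparisons, with its SE from the fit as a bar; filled points passed at an adjusted p under 0.05. The filled points number 4, 6 and 3, and 11 of these 13 are fatty acid genes.

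The promoters of the genes were read for 3 motifs through which SREBPs and their partners are known to act, in the 250 bases before each annotated start (RefSeq, GRCm38.p6), on both strands. Of the 31 genes 25 had at least 1 window, 32 windows in all. The sterol regulatory element, TCACNCCAC, lay in 1 of 16 sterol windows and 0 of 16 fatty acid windows, against 1.05% of 32851 windows of all genes. CCAAT, read by NF-Y, lay in 13 of 16 sterol windows (81.2%) and 7 of 16 fatty acid windows (43.8%), against 33.8% of all windows. GGGCGG, read by Sp1, lay in 13 of 16 sterol windows (81.2%) and 10 of 16 fatty acid windows (62.5%), against 32.7% of all windows. A match is a description of the letters and not evidence of binding, and no overlap between matches occurs in the windows printed. The windows of Mvd, Elovl6 and Srebf1, which passed as higher in ICC-MY than in the tissue, are shown 5′ to 3′ on the gene's strand with matches in capitals. The 60 bases of Hmgcs1 around its sterol regulatory element match are shown because no other window of the 31 genes holds that motif.
Mvd, chr8:122443423-122443672, minus strand: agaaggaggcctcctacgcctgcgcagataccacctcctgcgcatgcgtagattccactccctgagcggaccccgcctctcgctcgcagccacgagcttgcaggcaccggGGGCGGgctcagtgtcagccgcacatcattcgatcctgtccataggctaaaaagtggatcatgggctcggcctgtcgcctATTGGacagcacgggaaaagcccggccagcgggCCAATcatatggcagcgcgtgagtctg
Elovl6, chr3:129532136-129532385, plus strand: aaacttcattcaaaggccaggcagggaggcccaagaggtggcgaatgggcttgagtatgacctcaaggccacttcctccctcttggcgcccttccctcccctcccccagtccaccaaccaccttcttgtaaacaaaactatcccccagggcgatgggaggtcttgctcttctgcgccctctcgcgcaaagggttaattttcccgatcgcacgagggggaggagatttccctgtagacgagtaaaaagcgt
Srebf1, chr11:60222582-60222831, minus strand: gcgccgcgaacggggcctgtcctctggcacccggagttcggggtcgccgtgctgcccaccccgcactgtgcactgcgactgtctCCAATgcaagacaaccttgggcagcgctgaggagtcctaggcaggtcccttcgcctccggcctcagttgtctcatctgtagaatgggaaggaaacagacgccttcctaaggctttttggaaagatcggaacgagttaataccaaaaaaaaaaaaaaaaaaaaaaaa
Hmgcs1, chr13:119690189-119690248, plus strand: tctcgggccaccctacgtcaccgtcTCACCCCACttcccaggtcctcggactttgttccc
The Mvd window holds GGGCGG and 2 CCAAT matches, 1 of them on the opposite strand and so read as ATTGG. The Elovl6 window holds none of these letters, from which nothing is drawn about the factors. The Srebf1 window shown is the first of 3 annotated for that gene and holds 1 CCAAT. Both windows not shown hold GGGCGG, and that at chr11:60210472-60210721 also holds CCAAT on the opposite strand.

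The differences of the sterol branch were mostly above 0 in ICC-DMP against tissue, without any gene passing. Of 16 genes 13 lay above 0, with a median log2 difference of 0.23, against -0.04 over all genes, and a range of -0.18 to 0.78. Without the 2 narrow-range arrays 9 lay above 0 with a median of 0.09, and after quantile normalization 11 lay above 0 with a median of 0.12. In ICC-MY against tissue 9 of 16 were above 0, with a median of 0.18, against -0.02 over all genes. That median turned to -0.05 without tunica muscularis replicate 1 and to -0.03 without ICC-MY replicate 2, with 6 of 16 above 0 in each case. Between ICC-DMP and ICC-MY 10 of 16 were above 0 with a median of 0.05, which turned to -0.08 after quantile normalization and -0.01 without the narrow-range arrays.

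Mvd, diphosphomevalonate decarboxylase, which closes the mevalonate part of the route, was the sterol gene that passed, and its promoter is the Mvd sequence above. It read 5.57, 5.35 and 5.44 in ICC-DMP, 5.89, 6.60 and 6.76 in ICC-MY, and 4.62 and 4.76 in tunica muscularis. The groups did not overlap, with every ICC-MY array above every ICC-DMP array and every ICC-DMP array above both tissue arrays. ICC-MY exceeded the tissue by 1.73 on the log2 scale (SE 0.25, 3.31-fold, adjusted p = 0.0023), a result that held under all 15 alternatives. ICC-DMP was 0.97 log2 units below ICC-MY (log2 difference -0.97, SE 0.22, adjusted p = 0.0329). That call was lost without any 1 of the 3 ICC-DMP arrays (adjusted p = 0.0954, 0.136 and 0.107) or without ICC-MY replicate 2 (adjusted p = 0.113) or 3 (adjusted p = 0.103). Its difference between ICC-DMP and tissue was 0.76 (SE 0.25, adjusted p = 0.106), and passed without ICC-MY replicate 1 (adjusted p = 0.0125) or without both narrow-range arrays (0.69, adjusted p = 0.0356). A dimmer Mvd probe set passed in the same direction in ICC-MY against tissue and between the classes. This dimmer probe set did not repeat the difference between ICC-DMP and tissue. It read 5.23, 4.81 and 4.93 in ICC-DMP, against 5.15 and 4.64 in tunica muscularis, with overlapping groups. Its difference there was 0.097 (SE 0.213, adjusted p = 0.888 in a fit of every probe set).

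Upstream of Mvd, the kinases of the mevalonate route passed nowhere. Pmvk, phosphomevalonate kinase, read 6.94, 7.02 and 7.48 in ICC-DMP and 6.50, 7.51 and 7.24 in ICC-MY, against 6.34 and 6.57 in tunica muscularis. The ICC-DMP arrays all lay above the tissue (log2 difference 0.70, SE 0.30, adjusted p = 0.231), and 1 of the 3 ICC-MY arrays lay between the tissue arrays. Without ICC-MY replicate 1 its difference between ICC-MY and tissue was 0.92 and passed (adjusted p = 0.0286), against 0.63 (adjusted p = 0.258) with that array. Mvk, mevalonate kinase, differed by at most 0.18 log2 units in any comparison.

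Of the 10 enzymes downstream of Mvd, 8 had log2 differences above 0 between the classes and 2, Sqle and Dhcr7, below 0, with none passing. Those of Lss and Nsdhl were 0.01 and 0.04, and the 4 largest were as follows. Idi1, isopentenyl-diphosphate isomerase, read 9.55, 9.72 and 9.00 in ICC-DMP, against 8.17, 8.99 and 8.56 in ICC-MY. The classes did not overlap, by a narrow margin. The difference of 0.85 (SE 0.31) had an adjusted p of 0.175, and of 0.0222 with the replicate number as a block. After quantile normalization it was 0.69 and passed (adjusted p = 0.0335). Fdps, farnesyl diphosphate synthase, differed by 0.66 (SE 0.41, adjusted p = 0.492, and 0.0329 with the block), with ICC-DMP replicate 3 at 5.80 below the 7.16 and 7.34 of the other ICC-DMP arrays. Fdft1, squalene synthase, and Sc5d, sterol-C5-desaturase, each differed by 0.59 (adjusted p = 0.174 and 0.293). The arrays with the same number tended to deviate together, so the test is given with and without the block. In ICC-MY against tissue the 4 genes had log2 differences of -0.44 to -0.68, with none passing.

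Cyp51, lanosterol demethylase, read 7.86, 8.05 and 7.60 in ICC-DMP and 6.90, 7.84 and 7.21 in ICC-MY, against 6.83 and 7.36 in tunica muscularis. All ICC-DMP arrays lay above both tissue arrays, and the ICC-MY arrays overlapped both groups. Its difference between ICC-DMP and tissue was 0.75 (SE 0.30, adjusted p = 0.181), and 0.83 with the replicate block (adjusted p = 0.0242). After quantile normalization it was 0.695 and passed (adjusted p = 0.0454). Squalene epoxidase, Sqle, and lanosterol synthase, Lss, differed by 0.22 and 0.47 in that comparison and did not pass. Nsdhl and Dhcr7, enzymes of the late sterol steps, differed by 0.23 and -0.10.

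Insig1, which retains SREBPs in the endoplasmic reticulum and is itself an SREBP target, read 7.82, 7.65 and 7.10 in ICC-DMP and 7.01, 6.81 and 5.88 in ICC-MY, against 6.46 and 7.04 in tunica muscularis. ICC-DMP lay above both other groups on all arrays. The difference from ICC-MY was 0.96 (SE 0.33), with an adjusted p of 0.144, and of 0.0103 with the block. Without the narrow-range arrays it was 1.18 (adjusted p = 0.0443). The difference from the tissue was 0.78 (SE 0.37, adjusted p = 0.282), and 1.06 with the block (adjusted p = 0.0135). With the block, 2 sterol genes passed in ICC-DMP against tissue, Cyp51 and Insig1, and 4 passed between the classes, Mvd, Idi1, Fdps and Insig1. With the block the share of all genes that passed was 15.7% in ICC-DMP against tissue and 14.4% between the classes. Srebf2, the gene of SREBP2, read 6.53 to 6.76 in ICC-DMP and 6.67 to 7.15 in ICC-MY, against 6.51 and 6.76 in tunica muscularis, and differed by at most 0.28 in any comparison. A dimmer Srebf2 probe set read 4.85 to 5.65 on the ICC arrays, against 4.31 and 4.37 in the tissue. In a fit over 45037 probe sets it was higher by 0.81 in ICC-DMP (adjusted p = 0.097) and 0.82 in ICC-MY (adjusted p = 0.091). It did not pass.

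For 2 sterol genes a dimmer probe set passed where the brightest did not. Hmgcs1, cytosolic HMG-CoA synthase, which makes the substrate of HMG-CoA reductase, has 5 probe sets. The brightest read 12.15, 12.22 and 12.17 in ICC-DMP and 11.78, 12.97 and 12.64 in ICC-MY, against 11.52 and 12.52 in tunica muscularis, with overlapping groups. The dimmest read 7.61, 7.62 and 7.27 in ICC-DMP and 5.48, 5.12 and 4.78 in ICC-MY, against 4.12 and 4.10 in tunica muscularis. There every ICC-DMP array lay above every ICC-MY array, and every ICC-MY array above the tissue. In a fit over 45037 probe sets the dimmest was 3.39 log2 units higher in ICC-DMP than in the tissue (SE 0.22, adjusted p = 3.89e-05) and 2.37 higher than in ICC-MY (SE 0.19, adjusted p = 0.00024). Both held under the 11 alternatives run. In ICC-MY against tissue the dimmest was 1.02 higher (SE 0.22, adjusted p = 0.0175), a call not kept under 4 of the 11. The tissue values of this probe set lay under 4.23, the median of all values, so the size of its difference from the tissue is uncertain. In the fit over all probe sets the other 4 passed in no comparison. Between the classes all 4 had the opposite sign, from -0.28 to -1.14. In ICC-MY against tissue the brightest passed as higher after quantile normalization (0.57, adjusted p = 0.0296). After quantile normalization the brightest passed as lower in ICC-DMP than in ICC-MY (log2 difference -0.65, adjusted p = 0.0133), as it did without the narrow-range arrays (-0.62, adjusted p = 0.0271).

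Msmo1, methylsterol monooxygenase, has 2 probe sets. The brighter read 8.47, 8.41 and 6.97 in ICC-DMP and 7.28, 8.28 and 7.56 in ICC-MY, against 7.18 and 7.90 in tunica muscularis. ICC-DMP replicate 3 lay at the bottom of the 8 arrays while the other ICC-DMP arrays lay at the top. The dimmer read 4.80, 5.10 and 4.93 in ICC-DMP and 3.18, 3.51 and 3.43 in ICC-MY, against 3.17 and 3.10 in tunica muscularis. ICC-DMP stood clear of both other groups there, by 1.81 against the tissue (SE 0.15, adjusted p = 0.00016) and by 1.57 against ICC-MY (SE 0.14, adjusted p = 0.000328). The values of the other groups lay under 4.23, the median of all values, and were not shown to be above background, so the size of these differences is uncertain. The brighter probe set differed by 0.41 (SE 0.49) and 0.25 (SE 0.44) and did not pass. These probe sets were singled out after their values were seen, and which of the transcripts of either gene each one reads was not tested.

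**Figure D3:**
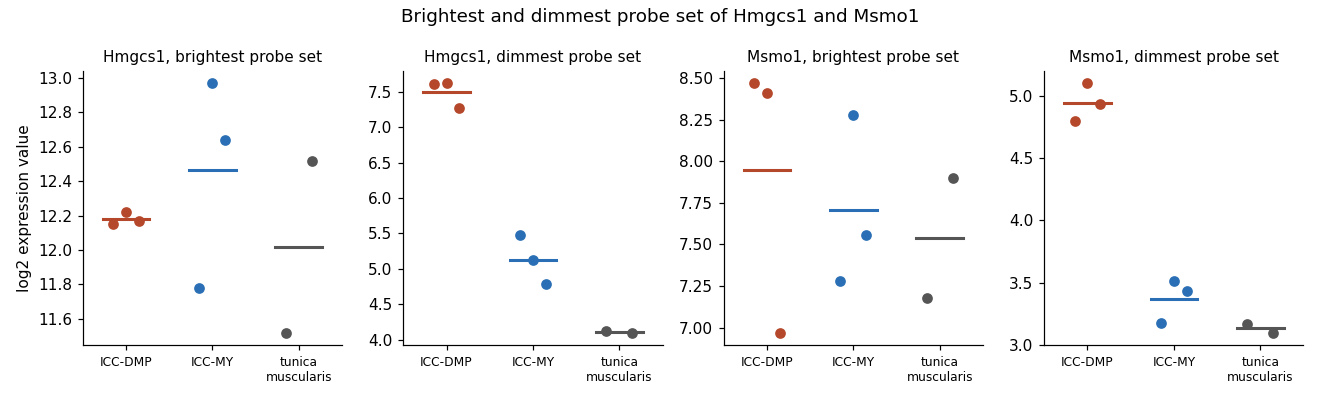
Log2 value on each array of the brightest and the dimmest probe set of Hmgcs1 and Msmo1, with group means as bars; each panel has its own range. For Hmgcs1 the groups overlap on the brightest probe set and are fully apart on the dimmest, and for Msmo1 ICC-DMP lies between 4.80 and 5.10 on the dimmest, against at most 3.51 in the other groups.

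In the fatty acid branch 10 of 15 genes lay above 0 in ICC-DMP against tissue (median 0.18), 11 of 15 in ICC-MY against tissue (median 0.21) and 6 of 15 in ICC-DMP against ICC-MY (median -0.04). Without the narrow-range arrays the median in ICC-DMP against tissue turned to -0.09, with 6 of 15 above 0, and that between the classes was -0.38, with 2 of 15 above 0. After quantile normalization these were 0.03, with 8 of 15 above 0, and -0.21, with 2 of 15 above 0. The median between the classes turned to 0.01 or 0.03 when ICC-MY replicate 2 or 3 was left out.

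Srebf1, the regulator, read 8.62, 8.57 and 8.91 in ICC-DMP and 8.61, 9.47 and 9.35 in ICC-MY, against 7.61 and 8.07 in tunica muscularis. Every ICC array lay above both tissue arrays, and the ICC classes overlapped. ICC-MY was higher than the tissue by 1.31 (SE 0.28, 2.47-fold, adjusted p = 0.0162). This was lost without ICC-MY replicate 3 (1.20, adjusted p = 0.0539) or tunica muscularis replicate 1 (1.08, adjusted p = 0.0959), and in a fit of those 2 groups alone (adjusted p = 0.0713). ICC-DMP exceeded the tissue by 0.86 (SE 0.28, adjusted p = 0.0993), which passed once the replicate number was a block (0.76, adjusted p = 0.0478) or ICC-MY replicate 1 was left out (adjusted p = 0.0222). Between the classes the difference was -0.44 (SE 0.25, adjusted p = 0.436), and passed after quantile normalization (-0.61, adjusted p = 0.0182) and without both narrow-range arrays (-0.71, adjusted p = 0.0192). Srebf1 has no second probe set here.

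The enzymes that supply and build palmitate differed little. Acly, which makes cytosolic acetyl-CoA from citrate, Acaca, the acetyl-CoA carboxylase of lipogenic tissue, and Fasn, fatty acid synthase, had differences of 0.23, 0.10 and 0.36 in ICC-DMP against tissue and of 0.38, 0.07 and 0.40 in ICC-MY against tissue, with none passing. Fasn read 7.67, 7.90 and 7.86 in ICC-DMP and 7.18, 8.20 and 8.18 in ICC-MY, against 7.24 and 7.66 in tunica muscularis. ICC-MY replicate 1 was the lowest of the 8 arrays for Fasn, and without it ICC-MY exceeded the tissue by 0.74 (adjusted p = 0.033).

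Me1, cytosolic malic enzyme, which supplies NADPH for fatty acid synthesis, set the ICC classes apart. It read 7.68, 7.80 and 7.83 in ICC-DMP and 6.58, 6.00 and 6.92 in ICC-MY, against 7.65 and 7.52 in tunica muscularis. ICC-DMP and the tissue lay close together, and all ICC-MY arrays lay below both. ICC-DMP was higher than ICC-MY by 1.27 (SE 0.22, 2.41-fold, adjusted p = 0.00877), which held under all 15 alternatives. ICC-MY was lower than the tissue (log2 difference -1.09, SE 0.25, adjusted p = 0.0218), which was lost without tunica muscularis replicate 1 (adjusted p = 0.0953) or 2 (adjusted p = 0.0744) without both narrow-range arrays (adjusted p = 0.0734) and in a fit of those 2 groups alone (adjusted p = 0.0969). A second Me1 probe set passed in the same direction in both comparisons. The smooth muscle list was also lowest in ICC-MY, with mean levels of 9.70 to 9.95 in ICC-DMP, 7.05 to 7.79 in ICC-MY and 10.27 to 11.22 in the tissue, although there the tissue and not ICC-DMP was highest. Its part in the Me1 result was not tested.

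Elovl6, which lengthens palmitate to stearate, showed the largest increase of the 31 genes over the tissue in ICC-MY. It read 10.45, 10.33 and 10.45 in ICC-DMP and 10.81, 12.19 and 12.02 in ICC-MY, against 8.76 and 9.07 in tunica muscularis. The 3 groups did not overlap. ICC-MY was 2.77 log2 units higher than the tissue (SE 0.37, 6.80-fold, adjusted p = 0.00147), which held under all 15 alternatives, and both other probe sets passed too. ICC-DMP was 1.50 higher than the tissue (SE 0.37, 2.83-fold, adjusted p = 0.0369). That call was lost without any 1 of the ICC-DMP or tissue arrays, with adjusted p-values of 0.117, 0.0984 and 0.107 for the ICC-DMP arrays in order and 0.171 and 0.0846 for the tissue arrays. In the fit over all probe sets both other probe sets passed in ICC-DMP against tissue (1.59, adjusted p = 0.031 and 2.34, adjusted p = 0.000332). The tissue values of the latter, 3.92 and 3.86, lay under 4.23, the median of all values, so its size is uncertain. Between the classes the difference was -1.27 (SE 0.33, adjusted p = 0.0552). The call was made with the replicate block (adjusted p = 0.0128), and also when ICC-MY replicate 1 was left out (-1.70, adjusted p = 0.000415). It was also made after quantile normalization (-1.51, adjusted p = 0.000101) and with dim probe sets removed (adjusted p = 0.0294). The mean over probe sets passed too (-1.19, adjusted p = 0.00741), and without both narrow-range arrays the difference was -1.70. Its other probe sets gave -1.86 (adjusted p = 0.014) and -0.43 (adjusted p = 0.346) in the fit over all probe sets.

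Elovl7, an elongase of saturated very long chains, was lower in ICC-DMP than in both other groups. It read 5.57, 5.36 and 6.00 in ICC-DMP and 7.10, 7.33 and 7.22 in ICC-MY, against 6.96 and 7.10 in tunica muscularis. ICC-MY lay at or just above the tissue and ICC-DMP below both. ICC-DMP was lower than ICC-MY (log2 difference -1.57, SE 0.18, 2.98-fold, adjusted p = 0.00097) and lower than the tissue (-1.38, SE 0.20, 2.61-fold, adjusted p = 0.00309), and both calls held under all 15 alternatives, with the tissue difference at -0.86 in the mean over its probe sets. Of the 5 other probe sets, 3 passed in the same direction between the classes and 2 against the tissue, and 0 passed in the opposite one. In ICC-MY against tissue 1 of the 5 passed as higher (0.57, adjusted p = 0.0362 in the fit over all probe sets), unlike the brightest. Elovl1 and Elovl5, elongases of very long saturated and of polyunsaturated chains, differed by at most 0.19 in any comparison.

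Scd1 and Scd2, stearoyl-CoA desaturases, put a double bond into stearate and palmitate. Scd1 read 8.99, 8.65 and 8.44 in ICC-DMP and 8.92, 8.43 and 8.74 in ICC-MY, against 7.44 and 6.95 in tunica muscularis. Every ICC array lay above both tissue arrays, and the classes overlapped. Each class was higher than the tissue by 1.50 (SE 0.24, 2.83-fold, adjusted p = 0.00447 in ICC-DMP and 0.00355 in ICC-MY), and both calls held under all 15 alternatives. A dimmer Scd1 probe set passed in ICC-DMP (adjusted p = 0.0488) and missed in ICC-MY (adjusted p = 0.0543). Between the classes the Scd1 difference was -0.003 (SE 0.21, adjusted p = 0.998). Scd2 differed by 0.43 (SE 0.40) in ICC-DMP and 0.77 (SE 0.40) in ICC-MY against tissue and did not pass on its brightest probe set. After quantile normalization it passed in ICC-MY against tissue (0.78, adjusted p = 0.0286), as did Acsl3 (0.65, adjusted p = 0.0414). Its second probe set passed in ICC-MY against tissue (1.48, SE 0.37, adjusted p = 0.0337).

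Fads2, the delta-6 desaturase of polyunsaturated fatty acids, was lower in both ICC classes than in the tissue. It read 5.27, 5.30 and 5.80 in ICC-DMP and 4.87, 5.61 and 5.64 in ICC-MY, against 6.34 and 6.84 in tunica muscularis. No ICC array reached the tissue arrays, and the ICC classes overlapped. The difference was -1.14 in ICC-DMP (SE 0.29, adjusted p = 0.0426) and -1.22 in ICC-MY (SE 0.29, adjusted p = 0.0267), and both other probe sets passed in the same direction in both comparisons. Without tunica muscularis replicate 2 these fell short (-0.89, adjusted p = 0.196 and -0.97, adjusted p = 0.159). The ICC-DMP call was also lost without ICC-DMP replicate 1 (adjusted p = 0.146) or 2 (adjusted p = 0.141), ICC-MY replicate 2 (adjusted p = 0.0571) or 3 (adjusted p = 0.0546) or tunica muscularis replicate 1 (adjusted p = 0.0576), and the ICC-MY call without ICC-DMP replicate 1 (adjusted p = 0.0504) or in a fit of those 2 groups alone (adjusted p = 0.0805). Tunica muscularis replicate 2 was also the array with the highest mean level of epithelial markers, 7.79, against 5.40 on the other tissue array. Neuron, glia and Schwann cell, macrophage, mesothelial and epithelial marker lists had lower mean levels in both ICC classes, with the calls or levels given above, and their part in the Fads2 result was not tested. Fads1, the delta-5 desaturase, differed by -0.13 in ICC-DMP and 0.21 in ICC-MY against tissue and did not pass.

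Acsl3 and Acsl4 activate long-chain fatty acids as their CoA esters. Acsl3 read 6.79, 6.90 and 6.28 in ICC-DMP and 6.99, 7.61 and 7.42 in ICC-MY, against 6.52 and 7.01 in tunica muscularis. The ICC-DMP arrays all lay below the ICC-MY arrays, by -0.68 in the mean (SE 0.24, adjusted p = 0.15, and 0.044 with the replicate block). After quantile normalization the difference was -0.81 and passed (adjusted p = 0.0128). This was -0.86 without the narrow-range arrays (adjusted p = 0.0296). With the block 4 fatty acid genes passed between the classes, Elovl6, Elovl7, Me1 and Acsl3. Acsl4 differed by at most 0.05 in any comparison.

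**Figure D4:**
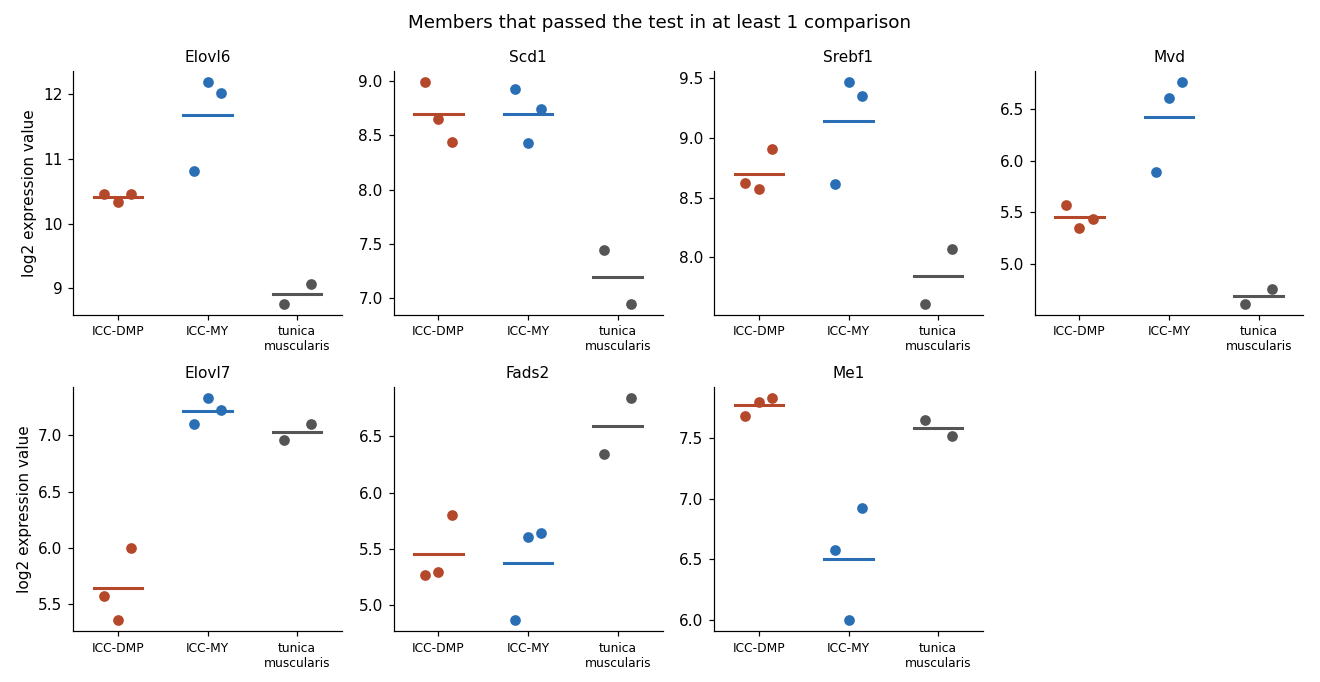
Log2 value on each array of the 7 genes that passed in at least 1 comparison, with group means as bars; each panel has its own range. Both ICC classes lie above the tissue for Elovl6, Scd1, Srebf1 and Mvd and below it for Fads2, while Elovl7 is low in ICC-DMP and Me1 is low in ICC-MY.

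Members of both pathways outside the 31 were described by longer lists, written with earlier results of these data known. Of 32 measured fatty acid pathway genes, 2 passed as higher and 3 as lower in ICC-DMP against tissue, 5 and 4 in ICC-MY against tissue, and 3 and 2 in ICC-DMP against ICC-MY. These are 15.6%, 28.1% and 15.6% of the list, against 11.0%, 13.8% and 8.67% of all genes. Acacb, the mitochondrial acetyl-CoA carboxylase whose malonyl-CoA restrains fatty acid oxidation, read 6.65, 6.34 and 7.15 in ICC-DMP and 7.15, 7.24 and 7.92 in ICC-MY, against 5.14 and 5.11 in tunica muscularis. Every ICC array lay above the tissue, by 1.58 in ICC-DMP (SE 0.29, adjusted p = 0.0102) and by 2.31 in ICC-MY (SE 0.29, adjusted p = 0.00112), while Acaca differed by at most 0.10. Acss2, which makes acetyl-CoA from acetate, was higher in ICC-DMP by 1.39 (SE 0.24, adjusted p = 0.00727) and in ICC-MY by 1.94 (SE 0.24, adjusted p = 0.00101). The Acacb and the ICC-DMP Acss2 calls held under all 15 alternatives, with Acacb at 0.67 in ICC-DMP and 1.10 in ICC-MY in the mean over its probe sets. Elovl2, an elongase of polyunsaturated chains, was lower in ICC-DMP (-1.45, SE 0.18, adjusted p = 0.00119) and in ICC-MY (-1.66, SE 0.18, adjusted p = 0.000471), with values of 2.55 to 2.92 on the ICC arrays, against 4.04 and 4.47 in the tissue. Its ICC values lay under 4.23, the median of all values, and it fell out when dim probe sets were removed, so the size of its difference is uncertain. Fads3, a relative of Fads2, and Idh1, cytosolic isocitrate dehydrogenase, were lower in ICC-DMP than in the tissue (log2 difference -0.99, adjusted p = 0.0202, and -1.003, adjusted p = 0.0312). Fads3 was also lower in ICC-MY than in the tissue (-0.93, adjusted p = 0.0218). The ICC-DMP call of Fads3 was lost without any 1 ICC-DMP or tissue array (adjusted p up to 0.0865), and was -0.57 in the mean over probe sets. The Idh1 call was lost without any 1 ICC-DMP array, ICC-MY replicate 3 or tunica muscularis replicate 2 (adjusted p up to 0.147).

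The malic enzymes other than Me1 also separated the classes. Me2, mitochondrial NAD-dependent malic enzyme, read 6.71, 6.57 and 6.43 in ICC-DMP and 8.55, 9.51 and 8.86 in ICC-MY, against 6.59 and 7.05 in tunica muscularis. ICC-MY stood above both other groups, and ICC-DMP was lower than ICC-MY (log2 difference -2.40, SE 0.25, adjusted p = 0.000572). Me3, mitochondrial NADP-dependent malic enzyme, read 5.72, 5.80 and 5.42 in ICC-DMP and 4.30, 3.79 and 3.38 in ICC-MY, against 5.70 and 5.49 in tunica muscularis. ICC-DMP was higher than ICC-MY by 1.82 (SE 0.24, adjusted p = 0.00175), the same direction as Me1. Against the tissue, ICC-MY was higher for Me2 by 2.15 (SE 0.28, adjusted p = 0.00133) and lower for Me3 (-1.77, SE 0.26, adjusted p = 0.0026). These Me2 and Me3 calls held under all 15 alternatives. The Me3 values of 3.79 and 3.38 in ICC-MY lay under 4.23, the median of all values, so the size of its differences is uncertain.

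Acsl6, an acyl-CoA synthetase known from brain, read 3.99, 4.34 and 3.81 in ICC-DMP and 5.94, 7.27 and 7.14 in ICC-MY, against 4.18 and 4.50 in tunica muscularis. It was lower in ICC-DMP than in ICC-MY (log2 difference -2.74, SE 0.34, adjusted p = 0.0014) and higher in ICC-MY than in the tissue by 2.44 (SE 0.38, adjusted p = 0.00329), and by 1.36 in the mean over its probe sets. The Acsl6 values of 3.99 and 3.81 in ICC-DMP and 4.18 in the tissue lay under 4.23, the median of all values. The size of these differences is therefore uncertain. Hacd1, a dehydratase of the elongation cycle known from muscle, read 10.78, 10.80 and 11.26 in ICC-DMP and 9.08, 9.59 and 9.92 in ICC-MY, against 11.73 and 12.50 in tunica muscularis, the order of the smooth muscle list. It was lower in ICC-MY than in the tissue (-2.59, SE 0.31, adjusted p = 0.000875), and higher in ICC-DMP than in ICC-MY by 1.42 (SE 0.28, adjusted p = 0.0155), a call lost without any 1 ICC-DMP array (adjusted p = 0.0512, 0.0519 and 0.0665). Lpin1, a phosphatidate phosphatase of triglyceride synthesis, was higher in ICC-DMP than in ICC-MY by 0.99 (adjusted p = 0.00898), and the call was lost when ICC-DMP replicate 1 was left out (adjusted p = 0.0519). The mean over its probe sets gave 0.51. The adipocyte list had mean levels of 3.66 to 3.82 in ICC-DMP and 4.26 to 4.60 in ICC-MY, against 4.17 and 4.33 in tunica muscularis, and its part in the differences between the classes was not tested. Its marker Adipoq read 2.47 to 2.90 over all 8 arrays, and of 8 measured genes 2 passed between the classes, Fabp4 and Pnpla2, both as lower in ICC-DMP.

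**Figure D5:**
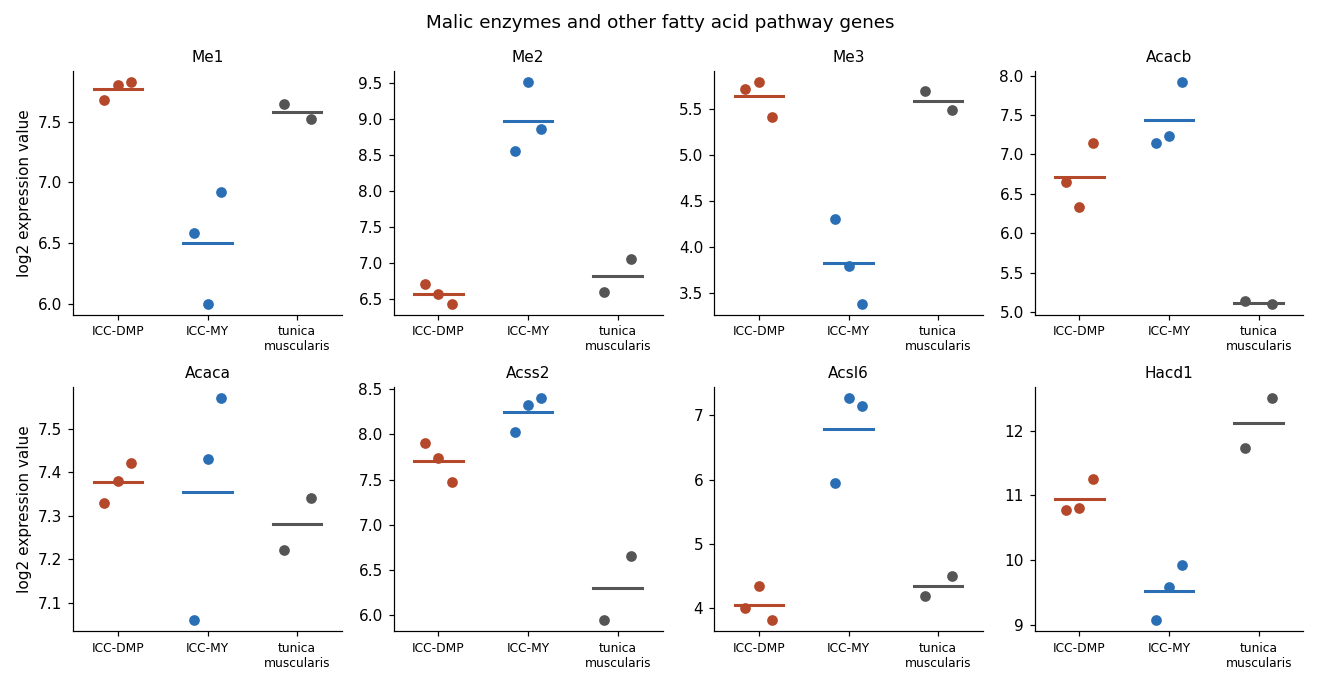
Log2 value on each array of the 3 malic enzymes, the 2 acetyl-CoA carboxylases and 3 other fatty acid genes, with group means as bars; each panel has its own range. ICC-MY is low for Me1 and Me3 and high for Me2, and the ICC classes lie above the tissue for Acacb (6.34 to 7.92, against 5.11 and 5.14) but overlap it for Acaca.

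Of 20 measured sterol pathway genes outside the 31, 1 passed as lower in ICC-DMP against tissue, 3 passed as higher in ICC-MY against tissue, and the same 3 passed as lower in ICC-DMP against ICC-MY. Over all genes 11.0%, 13.8% and 8.67% passed in these comparisons in either direction. The 3 genes were Cyp27a1, Abcg1 and Npc1, which act in sterol oxidation, efflux and lysosomal export and not in synthesis. Cyp27a1 read 5.52, 5.51 and 5.26 in ICC-DMP and 6.39, 7.04 and 6.86 in ICC-MY, against 4.81 and 5.48 in tunica muscularis. ICC-MY stood above both other groups, with ICC-DMP lower than ICC-MY (log2 difference -1.33, SE 0.23, adjusted p = 0.00806) and ICC-MY above the tissue by 1.62 (SE 0.26, adjusted p = 0.00366), both under all 15 alternatives. In the mean over its probe sets these were -0.66 and 0.78. Abcg1 was also lower in ICC-DMP than in ICC-MY (-1.33, SE 0.21, adjusted p = 0.00483). Its 1.12 higher level in ICC-MY than in the tissue (adjusted p = 0.0139) was lost without tunica muscularis replicate 1 (adjusted p = 0.0692) or 2 (adjusted p = 0.0507) and in a fit of those 2 groups alone (adjusted p = 0.0738). In the mean over its probe sets the Abcg1 values were -0.83 between the classes and 0.66 (adjusted p = 0.0787) in ICC-MY against tissue. The Npc1 differences of -0.86 between the classes (adjusted p = 0.0252) and 0.94 in ICC-MY against tissue (adjusted p = 0.0204) were less firm. The first was lost without ICC-DMP replicate 1 or 3 or ICC-MY replicate 2 or 3 (adjusted p up to 0.104), and the second without ICC-MY replicate 2 or 3 or either tissue array (adjusted p up to 0.0992). Npc1 read 3.89 to 4.43 in ICC-DMP and 4.13 and 4.02 in the tissue. These values lay under or near 4.23, the median of all values, so the size of the Npc1 differences is uncertain. Erg28, a sterol synthesis scaffold protein, was lower in ICC-DMP than in the tissue (-0.71, adjusted p = 0.0428), and this was lost without any 1 array other than ICC-MY replicate 1 (adjusted p up to 0.151). 7 listed sterol genes and 3 listed fatty acid genes are not analysed here.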

How the data were processed

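RNA from 8 samples was measured on single-channel oligonucleotide arrays. Per the labels' protocols, about 50 ng of RNA was amplified in repeated rounds of transcription. The deposited file holds 1 log2 value for each probe set and array. The submitters' processing notes name RMA and limma, with neither version nor role. The sources used here do not say whether the arrays were normalized together, and their upper ranges differ. No further normalization or filter was applied.

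After 64 control probe sets were left out, 34945 of 45037 named 1 gene, 932 named several and 9160 were unnamed. The brightest single-gene probe set stood for each of 18193 genes, and levels were not compared between probe sets. In R 4.3.3, limma 3.58.1 (lmFit, contrasts.fit, eBayes) was fitted to all 8 arrays in 3 groups, taken from the titles, with Benjamini-Hochberg adjustment over all genes and a threshold of 0.05. The 2-sided moderated statistic had 5 residual and 3.17 prior degrees of freedom. Errors are SEs of the fit, and the number of arrays limits the precision. The fit was tested on simulated data.

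The arrays with the same replicate number tended to deviate together, so the fit with the number as a block is given where it changes a call. Correlations of deviations from the group means were 0.155 to 0.608 for the same number and -0.608 to 0.169 for different numbers. These are not independent, as deviations sum to 0 within a group. The largest, 0.577 and 0.608, were of ICC-MY with tunica muscularis, the groups of the narrow-range arrays. The part of that range in the pairing was not tested. This pairing comes from the data, as the labels do not explain the numbers. Other alternatives were quantile normalization, removal of probe sets under 4.23 on too many arrays, the mean over a gene's probe sets, the 2 compared groups alone, and arrays left out. A fit of every probe set was added after seeing the data.

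The genes and lists were chosen with earlier results of these data known. Every gene of the 31 that passed is named, with up to 4 others per branch and comparison by size of difference. Of each longer list up to 3 are named per comparison and direction. Acss2 and Fads3 were named beyond these in ICC-MY against tissue, and their calls there are given only as designed.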

Additional observations from a re-analysis of the deposited data

Results flagged for a closer look

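For 3 of the 31 genes the difference of ICC-DMP from the tissue was unlike that of ICC-MY, as tested directly by ICC-DMP minus ICC-MY, in which the 2 shared tissue arrays cancel. These are the calls between the classes given above. Mvd had a log2 difference of -0.967 between the classes, exceeding the tissue by 0.76 in ICC-DMP and 1.73 in ICC-MY. Elovl7 had -1.574, with -1.38 in ICC-DMP and 0.19 in ICC-MY against tissue. Me1 had 1.272, with 0.18 in ICC-DMP and -1.09 in ICC-MY against tissue.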

How the results depend on the processing

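No called difference changed sign under the alternatives run, whereas branch medians near 0 did, as the report gives. Quantile normalization called 3129 genes in ICC-DMP against tissue (2009 as designed), 3911 in ICC-MY against tissue (2516) and 2557 between the classes (1577), where it called 1282 higher and 1275 lower in ICC-DMP, against 976 and 601. The replicate block called 2617 between the classes, the fit without the narrow-range arrays 2630, and the 2 compared groups alone 1520 in ICC-MY against tissue. Leaving out 1 array gave 1264 to 2480, 1965 to 2960 and 991 to 1840 genes in the 3 comparisons. Sterol genes called in ICC-DMP against tissue were 0 as designed, 2 with quantile normalization and with the block, 1 with the mean over probe sets, with the 2 groups alone and without the narrow-range arrays, and 0 to 1 without 1 array. In ICC-MY against tissue they were 1 as designed, 2 with quantile normalization and 1 to 2 without 1 array. Between the classes they were 1, with 3 after quantile normalization, 4 with the block, 3 without the narrow-range arrays and 0 to 1 without 1 array. Fatty acid genes called were 4, 5 and 2, with 2 to 5, 3 to 6 and 2 to 3 without 1 array, 2 in ICC-MY against tissue with the 2 groups alone and 7 after quantile normalization, and between the classes 5 after quantile normalization, 4 with the block and 5 without the narrow-range arrays. The block changed no call of the 31 genes other than those given in the report. The small number of arrays limits what could pass. The cause of these shifts was not tested.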
